A study of Mus musculus with 8 samples.

Results

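Small nuclear and nucleolar RNA genes were taken as the genes that GENCODE M21, a mouse gene annotation on the GRCm38 build, types as snRNA, snoRNA or scaRNA and whose mean level over 8 libraries was 1 CPM or more. CPM is a gene's reads divided by all reads in genes of the library, times 1000000. By this rule 296 of the 2943 annotated genes of these types were members, out of 53465 genes listed in all: 138 of 1385 snRNA, 138 of 1507 snoRNA and 20 of 51 scaRNA genes. The rule left out 1 region each of chromosomes 4 and 2, which held 0 genes above the threshold. Of the 2943 genes, 1695 had no read in any library. The mean level that chose the members is used here only as a description. Just inside the threshold were Gm26072 at 1.03 CPM, Snord93 at 1.02 CPM and Gm24095 at 1.02 CPM, and just outside it were Rnu1a1 at 0.987 CPM, Gm23138 at 0.985 CPM and Gm22105 at 0.978 CPM. A mean of 1 CPM was reached in both strains by 259 members, in NOD/ShiLtJ alone by 25 and in C57BL/6J alone by 12.

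The RNA came from live CD4+ CD8+ double-positive thymocytes, the T cell precursors that make up most of the thymus, sorted from NOD/ShiLtJ mice and from C57BL/6J mice. NOD/ShiLtJ is an inbred strain that develops autoimmune diabetes without treatment, and C57BL/6J is the strain of the mouse reference genome. The title of the series concerns how genetic variation linked to type 1 diabetes relates to chromatin folding in T cells. No age, sex, treatment or engineered allele is given in the labels. Each strain had 4 libraries, made from total RNA with a stranded kit for small inputs, and the label of each library has 2 replicate numbers, marked B and T, whose meaning is not given. The T1 and T2 libraries of each B number were added together within a strain, giving 2 samples per strain. Nothing says that the samples are from separate animals, so a p-value here reflects sample-to-sample spread that may be technical.

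Small nuclear RNAs (snRNAs) are the RNA parts of the spliceosome: U1 pairs with the 5' splice site, U2 with the branch point, and U4, U5 and U6 join as the tri-snRNP of the major spliceosome, while U11 and U12 serve a minor class of introns. Small nucleolar RNAs (snoRNAs) guide chemical changes of ribosomal RNA, box C/D snoRNAs for 2'-O-methylation and box H/ACA snoRNAs for pseudouridylation. Small Cajal body RNAs (scaRNAs) guide the same changes on snRNAs. In mammals most snoRNAs and scaRNAs are cut from the introns of host genes, whereas most snRNA genes have promoters of their own and lie among many near-identical copies and pseudogenes.

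By symbol and type the 296 genes were 138 snRNA, 39 box C/D snoRNA, 20 box H/ACA snoRNA and 22 scaRNA genes (Scarna9 and Scarna10, typed as snoRNA, are counted here), with 77 snoRNA genes whose symbol gives no class. Of the snRNA genes, 65 were at least 90% identical to Rnu6 (U6), 16 to a named U1 gene, 11 to Rnu2-10 (U2, itself counted) and 5 to Rnu5g (U5, itself counted), beside Rnu11, Rnu12 and 39 with no named relative at that identity. Members were 64 to 414 bases long with a median of 123.5 bases.

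Depth and makeup of the libraries bore on every value below. Reads in genes were 23532823 to 30370599 per library in NOD/ShiLtJ and 8526640 to 15701948 in C57BL/6J. All 10 double-positive thymocyte markers, Cd4, Cd8a and Rag1 among them, were detected in every library. None was called between strains by edgeR or DESeq2. Unadjusted p was under 0.05 in edgeR for 4 of them, beside 13.1% of all tested genes. These were Cd8b1, Rag1 and Dntt, lower in NOD/ShiLtJ, and Ptcra, higher in NOD/ShiLtJ. Summed over 4 genes, myeloid and dendritic markers were at 9.01 to 20.8 CPM in NOD/ShiLtJ and 3.93 to 7.74 CPM in C57BL/6J. Of these, edgeR called Csf1r higher in NOD/ShiLtJ (log2 fold change 2.47 ± 0.48 SE, adjusted p = 0.0233, edgeR). DESeq2 called Csf1r (adjusted p = 5.75e-04) and Lyz2 (adjusted p = 0.0218), both higher in NOD/ShiLtJ. B cell markers summed to 1.56 to 1.82 CPM in NOD/ShiLtJ and 0.704 to 1.02 CPM in C57BL/6J over 3 genes, with 0 called by either tool. Epithelial markers, 4 genes, summed to 7.00 to 8.43 CPM in NOD/ShiLtJ and 4.08 to 7.35 CPM in C57BL/6J, and erythroid markers, 3 genes, to 1.61 to 13.8 CPM in NOD/ShiLtJ and 1.08 to 5.31 CPM in C57BL/6J. Stromal and endothelial markers, 4 genes, summed to 120 to 146 CPM in NOD/ShiLtJ and 139 to 150 CPM in C57BL/6J, nearly all of it Pecam1. The part of such cells in the results below was not tested, and in bulk RNA a change in the number of cells of a type cannot be told apart from a change in RNA per cell.

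Small nuclear and nucleolar RNA genes took up 0.454% to 1.53% of all gene reads in NOD/ShiLtJ and 0.495% to 0.768% in C57BL/6J, and 1 library stood apart. In NOD/ShiLtJ their share was 0.776% and 1.53% in the T1 and T2 libraries of sample 1, and 0.454% and 0.632% in those of sample 2. In C57BL/6J it was 0.768% and 0.747% in sample 1, and 0.527% and 0.495% in sample 2. The T2 library of NOD/ShiLtJ sample 1 was highest, and the other 3 NOD/ShiLtJ libraries overlapped with the 4 of C57BL/6J. Counting error was small against these gaps, since no exact 95% interval of a share reached farther than 0.0053 percentage points from its value; intervals cover counting error only. Over the summed samples the share was 0.845% ± 0.438 in NOD/ShiLtJ and 0.637% ± 0.172 in C57BL/6J (SD, n = 2 each), a difference smaller than the spread within NOD/ShiLtJ (exact permutation test, two-sided, p = 0.667; 2 against 2 samples cannot give a p below 0.333). The difference of 0.21 percentage points became -0.10 without NOD/ShiLtJ sample 1 and 0.018 with that sample represented by its T1 library alone.

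**Figure D1:**
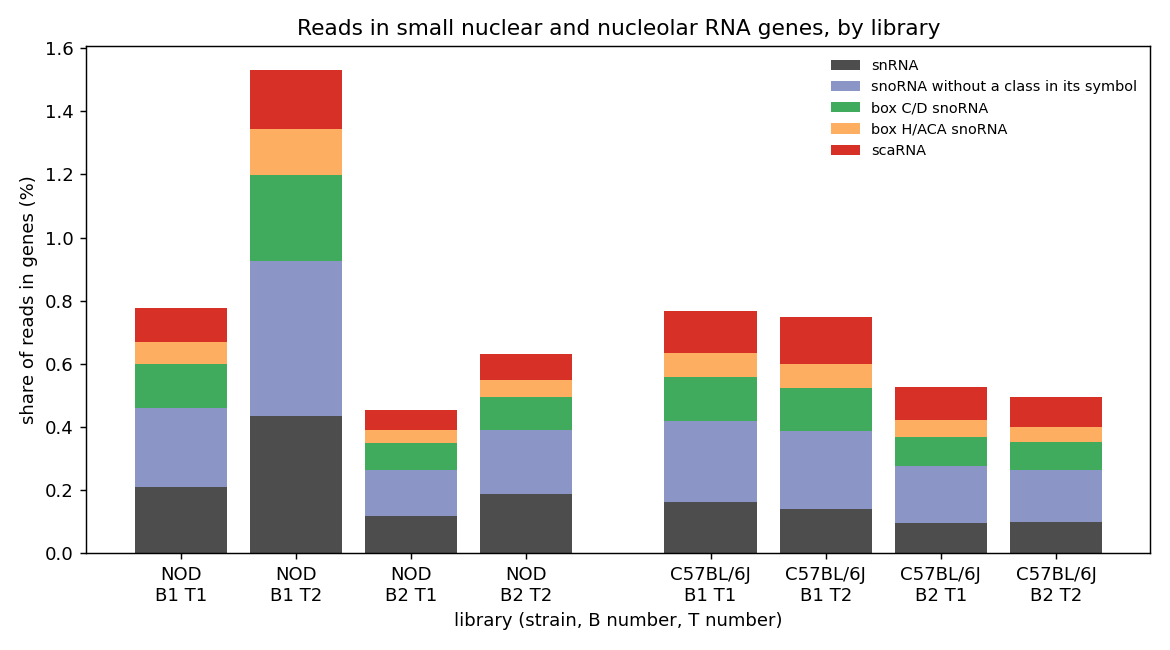
Share of all reads in genes (%, vertical axis) that fell in small nuclear and nucleolar RNA genes, by library (horizontal axis), with NOD/ShiLtJ on the left and C57BL/6J on the right; stacked colours are the classes by symbol. The T2 library of NOD/ShiLtJ sample 1 reaches 1.53%, and the other 7 lie between 0.454% and 0.776%.

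By class, snRNA genes took 0.236% ± 0.122 of gene reads in NOD/ShiLtJ and 0.125% ± 0.040 in C57BL/6J (SD, n = 2 each, exact permutation p = 0.667). Box C/D snoRNA genes took 0.150% ± 0.078 in NOD/ShiLtJ and 0.115% ± 0.032 in C57BL/6J (exact permutation p = 0.667), and box H/ACA snoRNA genes 0.0780% ± 0.0446 in NOD/ShiLtJ and 0.0641% ± 0.0184 in C57BL/6J (exact permutation p = 1). The share of scaRNA genes was 0.109% ± 0.052 in NOD/ShiLtJ and 0.120% ± 0.027 in C57BL/6J (exact permutation p = 1). None of these class shares differed beyond the spread between samples. The 165 host genes of the intronic members took 2.79% ± 0.16 of gene reads in NOD/ShiLtJ and 2.98% ± 0.017 in C57BL/6J (SD, n = 2 each).

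Within NOD/ShiLtJ the small RNA genes varied together, and their host genes did not follow. In the T2 library of NOD/ShiLtJ sample 1, 277 of the 296 genes were higher than in the T1 library, with a median log2 ratio of 0.95 on the log2(CPM + 0.1) scale, against -0.17 for 153 tested host genes and -0.10 for all 17291 tested genes. The same ratio was 0.40 in NOD/ShiLtJ sample 2, -0.15 in C57BL/6J sample 1 and 0.03 in C57BL/6J sample 2. The rise was not particular to the members. Each of 8 tested small structured RNAs of other types was also higher in T2 than in T1 of NOD/ShiLtJ sample 1. Rpph1 went from 6938 to 14719 CPM, Rny3 from 105 to 209 CPM and Rn7sk from 37565 to 59231 CPM. Between the summed samples, 291 of 296 genes were higher in NOD/ShiLtJ sample 1 than in sample 2 (median log2 ratio 1.04), and 253 of 296 were higher in C57BL/6J sample 1 than in sample 2 (0.54). All 39 box C/D, all 20 box H/ACA and all 22 scaRNA genes were higher in NOD/ShiLtJ sample 1 than in sample 2. Of the 4 NOD/ShiLtJ libraries, T2 of sample 1 was the highest for 276 genes and T1 of sample 2 the lowest for 240. The share of reads that fell outside any gene was 46.6% to 59.1% in NOD/ShiLtJ and 40.0% to 53.9% in C57BL/6J, and its part in this spread was not tested.

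**Figure D2:**
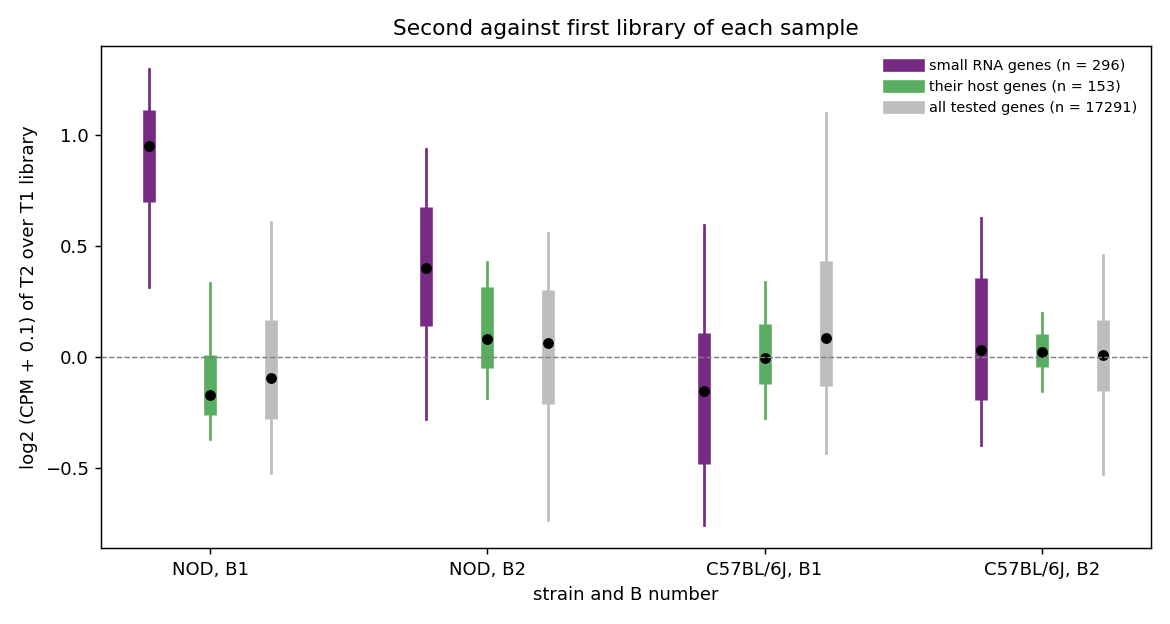
Log2 ratio of the T2 over the T1 library (vertical axis, CPM + 0.1) in each of the 4 summed samples; thick bars span the 25th to 75th percentile of the genes, thin lines the 10th to 90th percentile, and dots mark medians. In NOD/ShiLtJ sample 1 the small RNA genes sit at a median of 0.95, while their host genes sit at -0.17 and all tested genes at -0.10.

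Set beside tested genes of like level, the members varied more between libraries. At a mean of 10 to 100 CPM the median coefficient of variation over the 4 libraries was 57.4% in NOD/ShiLtJ and 25.6% in C57BL/6J for 76 members, against 13.5% in NOD/ShiLtJ and 11.9% in C57BL/6J for 6423 tested genes. At 100 CPM or more it was 61.1% in NOD/ShiLtJ and 26.4% in C57BL/6J for 17 members, against 11.4% in NOD/ShiLtJ and 9.85% in C57BL/6J for 2092 tested genes. At 1 to 10 CPM it was 54.5% in NOD/ShiLtJ and 32.4% in C57BL/6J for 203 members, against 26.7% in NOD/ShiLtJ and 29.1% in C57BL/6J for 5037 tested genes. These are descriptions, since members were set apart by type and level.

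The makeup of the small RNA reads was steadier than their amount. Box C/D snoRNA genes held 16.7% to 18.9% of the small RNA reads in the NOD/ShiLtJ libraries and 17.9% to 18.1% in the C57BL/6J libraries. Gm25835, the highest member, held 10.4% to 11.1% in NOD/ShiLtJ and 10.4% to 11.1% in C57BL/6J, and the 50 highest members held 82.1% to 83.5% in NOD/ShiLtJ and 80.1% to 83.3% in C57BL/6J. Some sets lay apart between strains. The snoRNA genes without a class in their symbol held 31.7% to 32.5% in NOD/ShiLtJ and 33.2% to 34.1% in C57BL/6J, and the 5 highest members, Scarna10 among them, 29.5% to 31.1% in NOD/ShiLtJ and 34.8% to 37.5% in C57BL/6J. The snRNA class and the scaRNA class also lay apart. All these sets are parts of a common total, in which the share of a set falls when another set takes more. The members other than the 14 called held 90.5% to 92.5% of it in NOD/ShiLtJ and 99.2% to 99.4% in C57BL/6J. The part of the called genes in the gaps of the other sets was not tested. Scarna10, which is in both the 5 highest members and the scaRNA class, is not among the 14. The 11 U2-sequence genes held 9.23% to 11.5% of the small RNA reads in NOD/ShiLtJ and 2.16% to 2.36% in C57BL/6J; without the 3 called copies, the other 8 held 2.53% to 3.11% in NOD/ShiLtJ and 2.002% to 2.25% in C57BL/6J. Scarna10 held 2.95% to 3.51% in NOD/ShiLtJ and 8.09% to 9.29% in C57BL/6J. The other 127 snRNA genes held 16.4% to 18.4% in NOD/ShiLtJ and 15.9% to 18.9% in C57BL/6J, and the other 21 scaRNA genes 8.62% to 10.9% in NOD/ShiLtJ and 8.76% to 11.5% in C57BL/6J, so that both sets overlapped between strains. The U2-sequence and Scarna10 sets and their remainders were picked after their values were seen, and their shares carry no test.

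**Figure D3:**
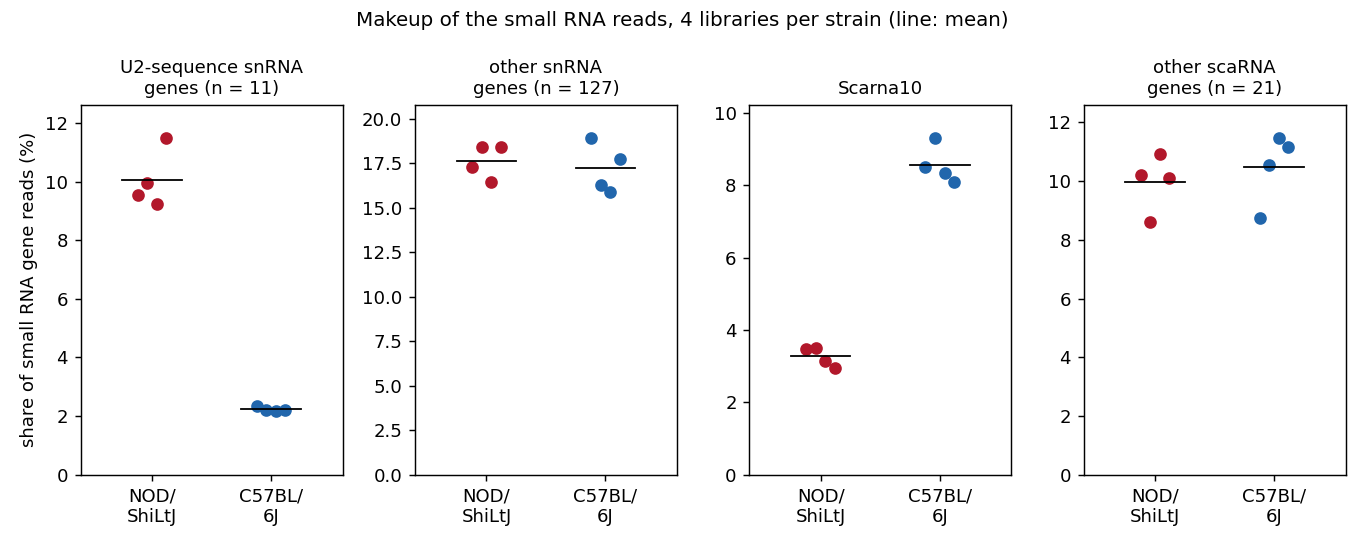
Share of all small nuclear and nucleolar RNA reads (%, vertical axes) held by the U2-sequence genes, the other snRNA genes, Scarna10 and the other scaRNA genes in the 4 libraries of each strain; points are libraries and lines are means. The strains do not overlap for U2-sequence genes and Scarna10 and do overlap in the other 2 panels.

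Between strains, 14 of the 296 small RNA genes passed an adjusted p of 0.05, 9 higher and 5 lower in NOD/ShiLtJ (edgeR quasi-likelihood F-test on the 4 summed samples, Benjamini-Hochberg over 17291 tested genes). DESeq2 called these 14 and 9 more, 11 higher and 12 lower, beside 4.07% of 20832 genes with a DESeq2 adjusted p (2.07% higher and 1.99% lower). Unless DESeq2 is named, called means by edgeR. The edgeR count is 4.73% of the members, beside 3.68% of all tested genes, with 1.91% of tested genes higher and 1.78% lower. All 296 members passed the filter on low counts. Of the 14, 9 reached a mean of 1 CPM in 1 strain only and were members through the strain in which they were higher. Of the 259 genes that reached it in both strains 5 were called, or 1.93%. The 4 libraries of one strain did not overlap with the 4 of the other for 29 members, or 9.80%, 15 higher and 14 lower in NOD/ShiLtJ, beside 16.6% of all tested genes (9.43% higher and 7.17% lower). At an unadjusted p under 0.05 there were 34 members, beside 13.1% of all tested genes. The log2 fold change was above 0 for 221 of 296 members, beside 52.3% of tested genes, with a median of 0.33 against 0.02 for all tested genes. That median was -0.32 without NOD/ShiLtJ sample 1 and -0.04 with its T1 library alone, so its direction rested on 1 library. The number called also moved with single samples, in fits where the strain with 1 sample left is assumed to vary like the other: without NOD/ShiLtJ sample 1 there were 9 higher and 28 lower, without NOD/ShiLtJ sample 2 there were 58 higher and 7 lower, without C57BL/6J sample 1 there were 6 higher and 1 lower, and with sample 1 of NOD/ShiLtJ from T1 alone there were 10 higher and 15 lower.

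By class, 13 of the 14 were snRNA genes, 9.42% of the 138 snRNA members beside 3.68% of all tested genes, and 1 was a snoRNA gene without a class in its symbol. All 9 called genes that reached 1 CPM in 1 strain only are among the 13; of the 110 snRNA genes that reached it in both strains 4 were called, or 3.64%, near the share of all tested genes. None of the 39 box C/D, 20 box H/ACA and 22 scaRNA members was called by edgeR, with 3, 0 and 1 of them at an unadjusted p under 0.05; DESeq2 called 0, 0 and 1. All 14 have a symbol that starts with Gm, the prefix of predicted genes, and none of the 75 members with another symbol was called by edgeR or DESeq2 (3 at an unadjusted p under 0.05 in edgeR). In 7 of them, Gm23849, Gm24950, Gm23805, Gm23240, Gm23191, Gm26110 and Gm23002, the call held under all 15 alternative analyses, and no call changed direction under any. Many copies cannot be told apart by short reads. Of the 38-base windows in a called gene, a median of 28.5% occurred in no other annotated gene of the 3 types, against 52.9% in the snRNA genes that were not called. How the deposited counting placed reads that match several copies is not given in the sources used here, so levels of near-identical copies are uncertain. Reads of both strains were placed on the mouse reference genome, and no NOD/ShiLtJ sequence of the copies was used. Whether the strains differ in the sequence or number of these copies, and the part of this in the calls, was not tested.

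Of the U2-sequence genes, copies of the branch-point snRNA, 3 of 11 were called, all higher in NOD/ShiLtJ. That is 27.3% of them, beside 3.68% of all tested genes. Of the 3, Gm24950 reached a mean of 1 CPM in NOD/ShiLtJ alone and was a member through that strain, in which it was higher. Rnu2-10 and 4 further copies lie on chromosome 11 near each other (GRCm38), each 191 bases long: Gm26316 (chr11:101604850-101605040, plus strand), Gm23849 (chr11:101627366-101627556, plus strand, inside Rdm1), Gm24950 (chr11:101641748-101641938, plus strand), Gm23971 (chr11:101645740-101645930, minus strand) and Rnu2-10 (chr11:101658238-101658428, plus strand). In the reference sequence Gm23849, Gm24950 and Gm23971 are identical to Rnu2-10, and Gm26316 differs from it by C170T, counted from the 5' end with the base of Rnu2-10 first. Both sequences are given here because the copies share them and yet differ in their counts; the capital marks the base that differs. All sequences below are from the GENCODE M21 transcripts of GRCm38, the C57BL/6J reference.
Rnu2-10: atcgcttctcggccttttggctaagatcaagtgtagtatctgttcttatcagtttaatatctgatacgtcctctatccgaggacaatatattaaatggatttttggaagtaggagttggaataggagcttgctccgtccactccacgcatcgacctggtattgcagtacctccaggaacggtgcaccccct
Gm26316: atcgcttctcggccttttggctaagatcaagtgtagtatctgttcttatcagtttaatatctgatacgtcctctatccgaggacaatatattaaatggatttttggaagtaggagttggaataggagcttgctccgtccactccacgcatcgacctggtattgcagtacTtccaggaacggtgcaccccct

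Gm26316 had 436 and 907 CPM in the libraries of NOD/ShiLtJ sample 1 and 212 and 388 CPM in those of sample 2, against 6.77 and 8.54 CPM in C57BL/6J sample 1 and 5.54 and 7.27 CPM in sample 2. Every NOD/ShiLtJ library was above every C57BL/6J library, by a log2 fold change of 6.09 ± 0.53 (SE, adjusted p = 0.00701, edgeR). The call was lost when either C57BL/6J sample was left out. Gm23849 had 99.9, 212, 81.8 and 134 CPM in the NOD/ShiLtJ libraries and 1.31, 3.87, 2.87 and 2.35 CPM in the C57BL/6J libraries (log2 fold change 5.65 ± 0.27 SE, adjusted p = 9.35e-06, edgeR). Its host Rdm1, a gene named for a RAD52-like motif, had a log2 fold change of -1.12 that was not called (adjusted p = 0.501, edgeR). Gm24950 had 8.37, 14.8, 4.87 and 7.16 CPM in NOD/ShiLtJ and 0.218, 0.199, 0.0637 and 0.117 CPM in C57BL/6J (log2 fold change 5.83 ± 0.62 SE, adjusted p = 9.76e-04, edgeR). All 3 were higher in NOD/ShiLtJ in every library.

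The other 2 copies of the cluster did not pass the test. Rnu2-10 had 15.9, 29.3, 8.13 and 13.6 CPM in the NOD/ShiLtJ libraries and 19.1, 15.3, 12.5 and 14.3 CPM in the C57BL/6J libraries, and Gm23971 had 4.46, 8.18, 2.27 and 2.97 CPM in NOD/ShiLtJ and 4.66, 3.28, 2.87 and 3.28 CPM in C57BL/6J. Both overlapped between strains. No 38-base window of Gm23849, Gm24950, Gm23971 or Rnu2-10 was unique among the annotated genes of the 3 types. Of the U2 copies elsewhere, Gm22973 on chromosome 12 averaged 70.9 CPM in NOD/ShiLtJ and 15.8 CPM in C57BL/6J (log2 fold change 2.12, adjusted p = 0.0612, edgeR) and Gm25360 on chromosome 1 averaged 63.9 CPM in NOD/ShiLtJ and 29.9 CPM in C57BL/6J (log2 fold change 1.04, adjusted p = 0.0963, edgeR). Their libraries did not overlap, and neither was called by edgeR, while DESeq2 called both (adjusted p = 1.04e-07 for Gm22973 and 0.0186 for Gm25360). Gm25939, near Gm25360 on chromosome 1, averaged 55.2 CPM in NOD/ShiLtJ and 58.9 CPM in C57BL/6J. Summed over the 11 U2-sequence genes, the share of gene reads was 0.0846% ± 0.0407 in NOD/ShiLtJ and 0.0143% ± 0.0044 in C57BL/6J, 5.91-fold higher in NOD/ShiLtJ (SD, n = 2 each). The sum is carried by the 3 called copies: for the other 8 the share was 0.0224% ± 0.0098 in NOD/ShiLtJ and 0.0134% ± 0.0043 in C57BL/6J, a ratio of 1.67 (SD, n = 2 each), and the difference was within 1 SD of the NOD/ShiLtJ samples.

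**Figure D4:**
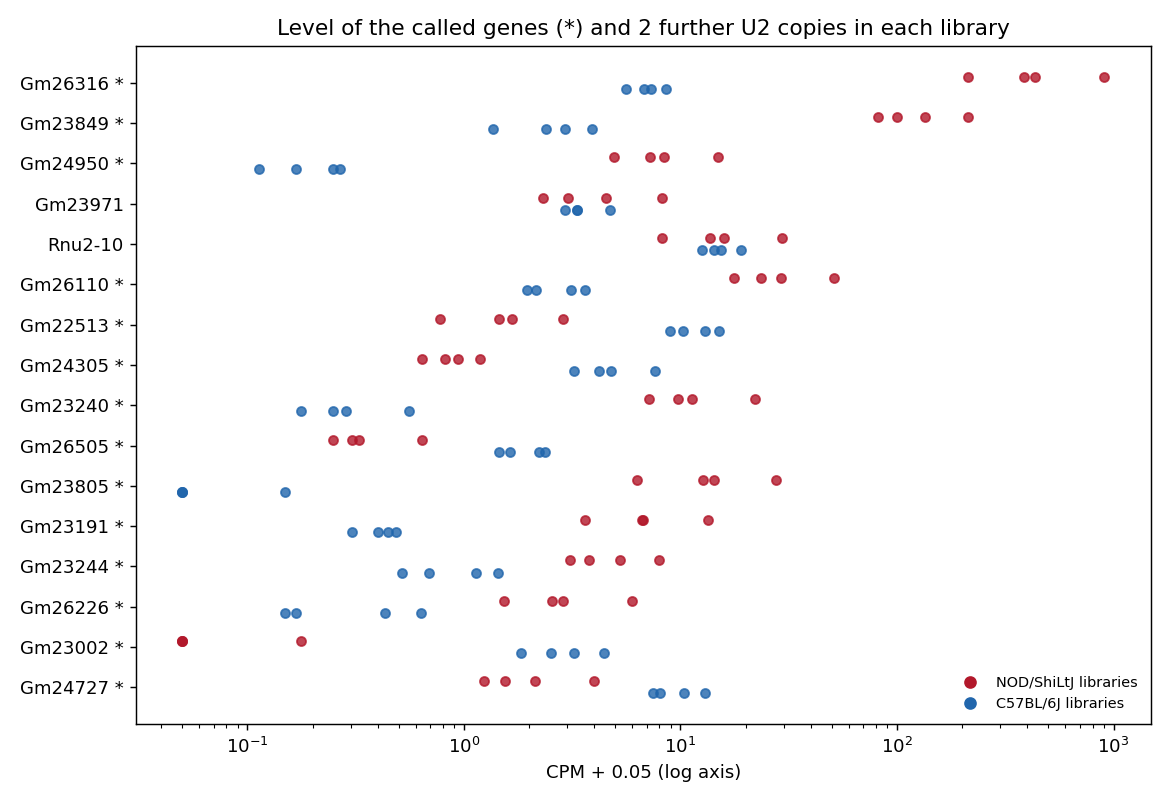
Level of the 14 called genes (starred) and of Gm23971 and Rnu2-10 in each library (horizontal log axis, CPM + 0.05); each point is a library, NOD/ShiLtJ above C57BL/6J. In every starred gene the 4 libraries of one strain lie apart from the 4 of the other, while the 2 genes without a star overlap.

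Among the 16 U1-sequence genes, copies of the RNA that pairs with the 5' splice site, 1 rose and 2 fell in NOD/ShiLtJ. That is 18.8% of them called, beside 3.68% of all tested genes. Of the called copies, Gm24305 reached a mean of 1 CPM in C57BL/6J alone and was a member through that strain, in which it was higher. Gm22513 and Gm24305 lie near each other on chromosome 12 (chr12:54696782-54696945, plus strand, and chr12:54734555-54734718, minus strand), and each differs from Rnu1a1 by 1 base, T60C and A26G. Gm26110 (chr1:171027965-171028129, plus strand, inside Fcgr4) differs from the U1b gene Rnu1b2 by G17A, T33C, T42C, C148T, C154T and G165T. The 2 named genes are given for comparison, and capitals mark bases that differ from Rnu1a1 in the first pair of copies and from Rnu1b2 in Gm26110.
Rnu1a1: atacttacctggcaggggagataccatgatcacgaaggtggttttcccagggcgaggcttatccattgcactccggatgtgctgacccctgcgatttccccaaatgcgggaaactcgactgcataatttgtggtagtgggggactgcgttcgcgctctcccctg
Gm22513: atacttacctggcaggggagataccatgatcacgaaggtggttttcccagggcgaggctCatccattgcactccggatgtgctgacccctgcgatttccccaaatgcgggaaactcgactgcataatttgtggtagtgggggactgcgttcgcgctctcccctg
Gm24305: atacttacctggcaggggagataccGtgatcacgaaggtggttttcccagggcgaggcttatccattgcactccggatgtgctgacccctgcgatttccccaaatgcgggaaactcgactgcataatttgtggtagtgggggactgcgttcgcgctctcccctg
Rnu1b2: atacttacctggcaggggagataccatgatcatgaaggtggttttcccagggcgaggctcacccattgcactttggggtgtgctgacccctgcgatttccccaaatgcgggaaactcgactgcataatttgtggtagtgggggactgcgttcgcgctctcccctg
Gm26110: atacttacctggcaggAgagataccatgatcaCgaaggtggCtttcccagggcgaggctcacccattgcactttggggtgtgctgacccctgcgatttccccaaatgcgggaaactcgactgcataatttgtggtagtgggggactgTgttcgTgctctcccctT

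Gm22513 had 1.40, 2.83, 0.724 and 1.62 CPM in the NOD/ShiLtJ libraries and 15.1, 12.9, 8.92 and 10.2 CPM in the C57BL/6J libraries (log2 fold change -2.91 ± 0.43 SE, adjusted p = 0.00584, edgeR). Gm24305 had 0.765, 1.14, 0.889 and 0.593 CPM in NOD/ShiLtJ and 4.73, 7.55, 4.14 and 3.17 CPM in C57BL/6J (log2 fold change -2.56 ± 0.45 SE, adjusted p = 0.0142, edgeR). Both were lower in NOD/ShiLtJ in every library, and both calls were lost without C57BL/6J sample 1. Gm26110 had 23.5, 50.9, 17.6 and 29.2 CPM in NOD/ShiLtJ and 3.06, 3.57, 1.91 and 2.11 CPM in C57BL/6J (log2 fold change 3.46 ± 0.37 SE, adjusted p = 0.00121, edgeR). Its host Fcgr4, an Fc receptor of myeloid cells, did not pass the filter on low counts. Of the other 13 copies, the log2 fold changes ran from -1.92 (Gm23511, adjusted p = 0.0781, edgeR) to 1.41 (Gm22042, adjusted p = 0.220, edgeR). None of the 13 was called by edgeR, and DESeq2 called 1 of them, Gm23511 (adjusted p = 3.82e-04).

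Of 65 U6-sequence genes, copies of the RNA at the catalytic centre of the spliceosome, 2 rose and 1 fell. That is 4.62% beside 3.68% of all tested genes (5 were called by DESeq2). All 3 called by edgeR reached a mean of 1 CPM in 1 strain only and were members through the strain in which they were higher. Gm23805 had 14.2, 27.5, 6.26 and 12.6 CPM in the NOD/ShiLtJ libraries, against 0.0993 CPM in the T2 library of C57BL/6J sample 1 and 0 in the other 3. That is 1495 reads in NOD/ShiLtJ and 1 read in C57BL/6J, a ratio of 698 (95% counting interval 125 to 27589), with an adjusted p of 4.74e-04 in edgeR. Its host Exo1, a DNA exonuclease, had a log2 fold change of -0.38 (adjusted p = 0.865, edgeR). Gm23191 had 6.63, 13.4, 3.56 and 6.57 CPM in NOD/ShiLtJ and 0.437, 0.397, 0.255 and 0.352 CPM in C57BL/6J (log2 fold change 4.34 ± 0.55 SE, adjusted p = 0.00259, edgeR). Gm23002 went the other way, with 0.127 CPM in T2 of NOD/ShiLtJ sample 1 and 0 in the other 3 NOD/ShiLtJ libraries, against 4.37, 3.18, 1.78 and 2.46 CPM in C57BL/6J. That is 3 reads in NOD/ShiLtJ and 141 in C57BL/6J, a ratio of 0.00993 (95% counting interval 0.00202 to 0.0296), with an adjusted p of 0.00391 in edgeR. In all 3 genes the strains lay apart in every library.

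The 39 snRNA genes without a named relative held 4 called genes, 3 higher and 1 lower. That is 10.3% of them, beside 3.68% of all tested genes, and all 4 reached a mean of 1 CPM in 1 strain only. Of these, 2 share an unbroken run with Rnu1a1: Gm23240 (chr1:48462173-48462293, minus strand) shares 70 bases and Gm26505 (chr2:113288273-113288438, plus strand, inside Tmco5b) shares 50 bases. The run is in capitals, which shows the snRNA that both resemble.
Gm23240: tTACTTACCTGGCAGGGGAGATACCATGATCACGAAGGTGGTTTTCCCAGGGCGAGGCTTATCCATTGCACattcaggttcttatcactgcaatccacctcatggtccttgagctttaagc
Gm26505: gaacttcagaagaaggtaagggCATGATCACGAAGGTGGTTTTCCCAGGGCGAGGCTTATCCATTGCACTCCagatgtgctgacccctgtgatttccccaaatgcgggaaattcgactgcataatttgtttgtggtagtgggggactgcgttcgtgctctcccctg

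Gm23240 had 11.2, 22.1, 7.08 and 9.69 CPM in the NOD/ShiLtJ libraries and 0.510, 0.199, 0.127 and 0.235 CPM in the C57BL/6J libraries (log2 fold change 5.46 ± 0.57 SE, adjusted p = 9.76e-04, edgeR). Gm26226 had 2.80, 5.91, 1.48 and 2.49 CPM in NOD/ShiLtJ and 0.582, 0.0993, 0.382 and 0.117 CPM in C57BL/6J (log2 fold change 3.18 ± 0.60 SE, adjusted p = 0.0195, edgeR). Its host Padi2, an enzyme that turns protein arginines into citrulline, had a log2 fold change of -0.76 (adjusted p = 0.0956, edgeR). Gm23244 had 5.18, 7.93, 3.03 and 3.72 CPM in NOD/ShiLtJ and 1.09, 1.39, 0.637 and 0.469 CPM in C57BL/6J (log2 fold change 2.41 ± 0.54 SE, adjusted p = 0.0441, edgeR), and its call was lost in 6 of 15 alternatives. Gm26505 had 0.255, 0.591, 0.198 and 0.277 CPM in NOD/ShiLtJ and 2.33, 1.59, 2.17 and 1.41 CPM in C57BL/6J (log2 fold change -2.62 ± 0.52 SE, adjusted p = 0.0263, edgeR). The first 3 were higher and Gm26505 lower in NOD/ShiLtJ in every library, and the calls of Gm26226 and Gm26505 were lost when either C57BL/6J sample was left out.

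The snRNA genes of the minor spliceosome and of U5 were not called. Rnu11, the U11 gene that acts at the 5' splice site of minor introns, had 398, 839, 194 and 330 CPM in NOD/ShiLtJ and 445, 372, 235 and 241 CPM in C57BL/6J (log2 fold change 0.37 ± 0.54 SE, adjusted p = 0.879, edgeR). Rnu12, the U12 gene that acts at their branch point, averaged 141 ± 82 CPM in NOD/ShiLtJ and 113 ± 41 CPM in C57BL/6J (SD, n = 2 each). The highest of the 5 U5-sequence genes, Gm25099, averaged 125 CPM in NOD/ShiLtJ and 88.3 CPM in C57BL/6J, and none of the 5 was called by edgeR or DESeq2 (1 at an unadjusted p under 0.05 in edgeR). Gm24265, the highest snRNA gene with no named relative, had 213, 468, 131 and 194 CPM in NOD/ShiLtJ and 235, 204, 143 and 137 CPM in C57BL/6J. In Rnu11, Rnu12 and Gm24265 the T2 library of NOD/ShiLtJ sample 1 was the highest of all 8 libraries.

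The snoRNA genes among the most abundant members were not called. Levels are given here per kilobase of gene. Gm25835 inside Eif4a1, a translation initiation factor gene, was at 6281 CPM per kb in NOD/ShiLtJ and 4851 CPM per kb in C57BL/6J. Snord15a, a box C/D snoRNA inside the ribosomal protein gene Rps3, followed at 3419 CPM per kb in NOD/ShiLtJ and 2677 CPM per kb in C57BL/6J, and Snord17, inside the sorting nexin gene Snx5, at 1885 CPM per kb in NOD/ShiLtJ and 1464 CPM per kb in C57BL/6J. Snord118, the U8 box C/D snoRNA needed to process the large-subunit ribosomal RNAs, was at 1725 CPM per kb in NOD/ShiLtJ and 1053 CPM per kb in C57BL/6J. Snora23, a box H/ACA snoRNA inside the importin gene Ipo7, was at 1403 CPM per kb in NOD/ShiLtJ and 1087 CPM per kb in C57BL/6J. In every library Gm25835 was above Snord15a and Snord15a above Snord17, while the order of Snord118 and Snora23 changed between libraries. These sequences are given as the abundant representatives of their classes, with capitals on the C box letters TGATGA and D box letters CTGA in Gm25835, Snord15a and Snord17, and on ACA, 3 bases from the 3' end, in Snora23.
Gm25835: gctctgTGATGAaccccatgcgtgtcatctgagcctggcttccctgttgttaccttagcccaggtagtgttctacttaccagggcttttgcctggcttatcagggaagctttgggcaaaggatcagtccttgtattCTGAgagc
Snord15a: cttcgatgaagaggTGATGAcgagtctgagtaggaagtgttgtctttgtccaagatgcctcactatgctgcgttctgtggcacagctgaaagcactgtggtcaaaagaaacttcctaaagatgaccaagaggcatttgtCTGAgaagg
Snord17: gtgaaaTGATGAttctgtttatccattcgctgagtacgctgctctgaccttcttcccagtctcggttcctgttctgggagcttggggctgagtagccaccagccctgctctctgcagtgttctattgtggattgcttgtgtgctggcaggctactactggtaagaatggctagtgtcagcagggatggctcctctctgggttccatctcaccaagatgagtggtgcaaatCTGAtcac
Snora23: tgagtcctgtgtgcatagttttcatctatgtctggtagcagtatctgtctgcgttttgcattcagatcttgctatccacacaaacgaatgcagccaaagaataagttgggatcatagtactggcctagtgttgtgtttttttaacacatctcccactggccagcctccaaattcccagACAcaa

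Gm25835 had 862, 1585, 499 and 686 CPM in the NOD/ShiLtJ libraries and 844, 830, 582 and 517 CPM in the C57BL/6J libraries (log2 fold change 0.32 ± 0.42 SE, adjusted p = 0.863, edgeR). Snord15a had 473, 882, 314 and 357 CPM in NOD/ShiLtJ and 452, 469, 340 and 321 CPM in C57BL/6J (log2 fold change 0.30 ± 0.38 SE, adjusted p = 0.856, edgeR). Snora23 had 239, 500, 124 and 173 CPM in NOD/ShiLtJ and 243, 244, 166 and 140 CPM in C57BL/6J (log2 fold change 0.31 ± 0.53 SE, adjusted p = 0.897, edgeR). In all of them the libraries of the strains overlapped and T2 of NOD/ShiLtJ sample 1 stood highest. Of the other members among the 12 highest, Gm26448 (inside Rpsa), Snora21 (inside Rpl23), Gm24119 (inside Slc25a3) and Snord118 had log2 fold changes of 0.48, 0.46, 0.67 and 0.66, none called.

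The letters of the boxes were searched in the sequences. D box letters CTGA were in the last 20 bases of all 39 box C/D members and C box letters TGATGA in the first 20 bases of 25, or 64.1%, beside 97.1% and 65.7% of the 70 annotated box C/D genes that are no members. ACA stood 3 bases from the 3' end in 18 of 20 box H/ACA members and in 77.3% of the other 22. Of the 77 snoRNA members without a class in their symbol, 11 held both C and D letters (median length 81 bases), 46 held the ACA and not both C and D (median 133 bases) and 20 held neither. ACA there was in 59.7% of members and in 15.3% of the 1277 such genes that are no members. Only the transcribed strand was searched, and the letters are descriptions of sequence.

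Gm24727 (chr8:33691801-33691944, plus strand, inside Gsr) was the 1 snoRNA gene called by edgeR; DESeq2 called it and 2 more without a class in their symbol, Gm22270 (adjusted p = 4.16e-04) and Gm23346. It had 2.08, 3.92, 1.19 and 1.503 CPM in the NOD/ShiLtJ libraries and 8.01, 12.9, 10.4 and 7.39 CPM in the C57BL/6J libraries (log2 fold change -2.21 ± 0.43 SE, adjusted p = 0.0239, edgeR). It was lower in NOD/ShiLtJ in every library, and the call was lost when either C57BL/6J sample was left out. Its host Gsr, glutathione reductase, averaged 13.9 ± 7.4 CPM in NOD/ShiLtJ and 36.5 ± 0.8 CPM in C57BL/6J (SD, n = 2 each), a log2 fold change of -1.44 that was called by DESeq2 (adjusted p = 0.00181) and not by edgeR (adjusted p = 0.0872). A close copy, Gm25291 (chr11:51737779-51737922, minus strand, inside Sec24a), is 93.8% identical and had 7.27, 10.8, 3.62 and 6.25 CPM in NOD/ShiLtJ and 3.71, 5.36, 5.80 and 5.75 CPM in C57BL/6J, which overlap. Capitals mark the ACA in Gm24727 and the bases of Gm25291 that differ from it.
Gm24727: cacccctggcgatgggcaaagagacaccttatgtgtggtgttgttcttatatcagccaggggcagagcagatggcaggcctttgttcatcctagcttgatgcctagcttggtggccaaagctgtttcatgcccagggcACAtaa
Gm25291: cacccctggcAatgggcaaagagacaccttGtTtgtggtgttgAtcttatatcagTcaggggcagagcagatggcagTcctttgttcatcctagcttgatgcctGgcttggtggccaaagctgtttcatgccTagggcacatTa

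Scarna10, the highest scaRNA, lies at chr6:125186359-125186683 on the minus strand and overlaps an exon of its host Ncapd2, a condensin subunit. It had 269, 537, 143 and 187 CPM in the NOD/ShiLtJ libraries and 652, 695, 439 and 401 CPM in the C57BL/6J libraries. T2 of NOD/ShiLtJ sample 1 overlapped with C57BL/6J and the other 3 NOD/ShiLtJ libraries were below every C57BL/6J library. The log2 fold change was -1.004 ± 0.52 (SE) and was not called (adjusted p = 0.573, edgeR). It was -1.81 without NOD/ShiLtJ sample 1, where the gene was called (adjusted p = 7.79e-10, edgeR) with the spread taken from the 2 C57BL/6J samples alone, and -0.50 without NOD/ShiLtJ sample 2, where it was not. With the B number fitted as a replicate block Scarna10 was called by edgeR, and with the numbers crossed it was not. Ncapd2 had 65.5 and 214 CPM in the summed NOD/ShiLtJ samples and 346 and 347 CPM in those of C57BL/6J (log2 fold change -1.36, not called). The NOD/ShiLtJ sample in which Scarna10 was higher was the one in which Ncapd2 was lower. Because exons overlap, reads of both genes cannot be fully told apart. The next 2 scaRNA genes, Scarna13 and Scarna2, averaged 164 ± 56 CPM and 144 ± 47 CPM in NOD/ShiLtJ and 120 ± 6.4 CPM and 108 ± 11 CPM in C57BL/6J (SD, n = 2 each), neither called. Gm22442, the scaRNA gene called by DESeq2 alone and named after its values were seen, lies inside Chd3, a chromatin remodeller gene. It had 29.2, 45.9, 20.3 and 26.6 CPM in NOD/ShiLtJ and 56.1, 67.3, 58.1 and 49.4 CPM in C57BL/6J, lower in every NOD/ShiLtJ library, with a log2 fold change of -0.98 ± 0.25 (SE, adjusted p = 0.0764 in edgeR and 0.0210 in DESeq2).

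Most snoRNA and scaRNA genes lay inside a host gene, and most snRNA genes did not. A host on the same strand was annotated for 189 of 296 members: 89.7% of box C/D, 17 of 20 box H/ACA, 86.4% of scaRNA and 93.5% of unclassed snoRNA genes, but 33.3% of snRNA genes. Of 165 hosts, 17 were ribosomal protein genes of the Rpl and Rps series and held 26 members. Of 177 members whose host was tested, 81 (45.8%) had a log2 fold change of the same sign as the host, and Pearson's r was -0.05 and Spearman's rho -0.05 across these genes, which share libraries and are not independent. For the 143 snoRNA and scaRNA members r was 0.25 and rho -0.02, and for the 34 snRNA members r was -0.36 and rho -0.09. The share of the same sign was 51.4% without NOD/ShiLtJ sample 1 and 50.3% with its T1 library alone, where the members' median turned below 0, and 41.2% to 58.8% over all alternatives. The median log2 fold change was 0.26 for the members and -0.05 for their hosts. By edgeR 2 of 153 tested hosts were called, beside 3.68% of all tested genes. They were Eif2ak3 and Frmd4b, which hold Gm23346 and Gm23510, and neither member was called. DESeq2 called these 2 hosts and Gsr, and of their members Gm23346 (adjusted p = 0.0481) and Gm24727, but not Gm23510. In all 22 members overlapped an exon of another gene on the same strand and 8 on the other strand, and whether the counting used strand is not given in the sources used here.

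**Figure D5:**
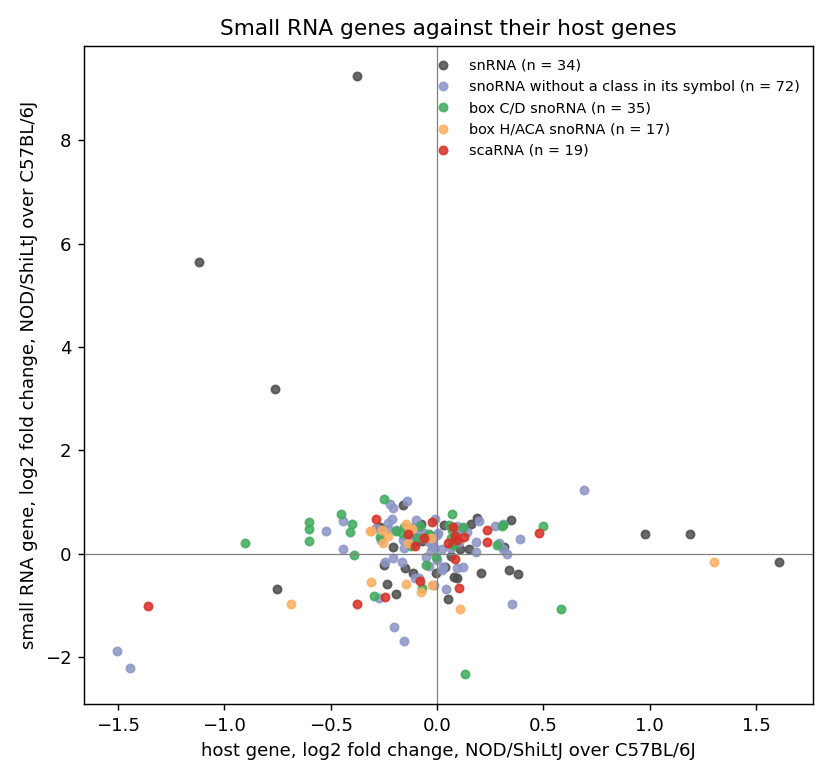
Log2 fold change of NOD/ShiLtJ over C57BL/6J for each small RNA gene (vertical axis) against that of its host gene (horizontal axis) for the 177 members with a tested host, coloured by class. The members lie mostly above 0 while the hosts lie on both sides of 0, and 81 of 177 share the sign of their host.

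In 4 hosts 3 or more snoRNA members lie together, and these were followed one by one. In Rpl13a, a ribosomal protein gene, Snord34, Snord35a and Snord32a averaged 23.1 ± 3.1, 18.6 ± 5.2 and 10.1 ± 5.7 CPM in NOD/ShiLtJ and 18.9 ± 2.9, 11.8 ± 2.9 and 7.00 ± 1.62 CPM in C57BL/6J (SD, n = 2 each). Their log2 fold changes were 0.24, 0.61 and 0.47, while that of Rpl13a was -0.60 (adjusted p = 0.244, edgeR). In the non-coding host 2410006H16Rik, Snord49a, Snord49b and Snord65 had log2 fold changes of 0.21, 0.47 and 0.77, beside 0.07 for the host. In Nop58, which encodes a core protein of box C/D particles, Snord11, Snord70 and Gm26287 had 0.34, -0.22 and -0.06, beside -0.05 for the host. In Rpl17, a ribosomal protein gene, Snord58b, Gm23301 and Gm26202 had 0.53, 0.50 and -0.26, beside 0.12 for the host. None of these 12 members or 4 hosts was called, and signs were mixed in Nop58 and Rpl17. Snord93, a box C/D member just inside the threshold, had 0.425, 0.928, 0.0988 and 0 CPM in NOD/ShiLtJ and 2.33, 1.59, 1.66 and 1.17 CPM in C57BL/6J. Its libraries did not overlap, and its log2 fold change of -2.33 ± 0.92 (SE) was not called (adjusted p = 0.331, edgeR).

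Protein genes of these pathways, from lists chosen by function, showed no call in either direction by edgeR or DESeq2. The 8 core proteins of snoRNA particles had a median log2 fold change of 0.05 (range -0.24 to 0.58), beside 0.02 for all tested genes. Fbl, the methyltransferase of box C/D particles, averaged 10.8 ± 3.7 CPM in NOD/ShiLtJ and 12.4 ± 1.4 CPM in C57BL/6J, and Dkc1, the pseudouridine synthase of box H/ACA particles, 53.6 ± 9.7 CPM in NOD/ShiLtJ and 51.4 ± 1.8 CPM in C57BL/6J (SD, n = 2 each). The median was -0.06 for 14 assembly factors (1 further listed gene was not analysed), -0.10 for 36 proteins of spliceosomal particles, -0.05 for 44 genes of snRNA transcription, processing and export, and -0.06 for 21 genes of nuclear RNA decay. At an unadjusted p under 0.05 in edgeR there were 1 of 8 core snoRNA proteins and 1 of 14 assembly factors. The same held for 2 of 36 spliceosomal proteins, 2 of 44 genes of the transcription group and 0 of 21 decay genes. Among all tested genes 13.1% were under that unadjusted p and 3.68% were called by edgeR. The widest values were 1.25 for Ell2, a transcription elongation factor (adjusted p = 0.233, edgeR), and -0.81 for Snrpf, an Sm ring protein (adjusted p = 0.317, edgeR). At 2 samples per strain these counts of 0 do not show that levels were alike.

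Small structured RNAs of other types, such as the signal recognition particle RNA, are no members and were followed beside them. Rn7sk, the RNA that holds back elongation factor P-TEFb, had 37565, 59231, 20316 and 29175 CPM in the NOD/ShiLtJ libraries and 24307, 34500, 23125 and 20824 CPM in the C57BL/6J libraries. Of 8 such genes tested, edgeR called 1, Rn7s1, an RNA of the signal recognition particle, and DESeq2 called Rn7s1 and Rn7s2. Rn7s1 had 10.9, 19.1, 5.89 and 9.89 CPM in NOD/ShiLtJ and 68.1, 86.6, 58.0 and 49.0 CPM in C57BL/6J (log2 fold change -2.57 ± 0.37 SE, adjusted p = 0.0130, edgeR). It was lower in NOD/ShiLtJ in every library. Rn7s2, its close relative, averaged 30.4 CPM in NOD/ShiLtJ and 124.6 CPM in C57BL/6J (adjusted p = 0.0759 in edgeR and 5.19e-08 in DESeq2).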

How the data were processed

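Reads per gene were counted in 8 libraries, 4 per strain. Per the submitters' processing notes the tools were STAR 2.5.0a and HTSeq 0.6.1 on the GRCm38 build; the annotation release, strand setting and treatment of reads with several matches are not given in the sources used here. The deposited tables hold raw counts per gene, with no normalization by the authors, and HTSeq's summary lines, which were left out of totals. Reads assigned to no gene were 40.0% to 59.1% and ambiguous reads 0.694% to 2.38% of a library's reads. No read was tallied in any other summary line of HTSeq in any library.

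Gene types, coordinates and sequences came from GENCODE M21, which held 53360 of 53465 listed genes (105 were not matched). The T1 and T2 libraries of a B number were added within a strain, giving 4 samples. edgeR 4.0.16 (R 4.3.3; filterByExpr, TMM, robust quasi-likelihood F-test, 2 residual degrees of freedom) tested 17291 genes, with Benjamini-Hochberg adjustment and a threshold of 0.05; it was tested on simulated data. Fold changes are NOD/ShiLtJ over C57BL/6J, and SE is the log2 fold change divided by the square root of F. Shares were compared by an exact permutation test. DESeq2 1.42.0, other scalings, filters, sample sums and left-out samples were alternatives. Intervals are exact at 95% and cover counting error only. Identity between genes was taken from edit distances (edlib 1.3.9.post1), and a host is an annotated gene on the same strand that spans the member. Some sequences are not reported here.

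Named genes were all called members, the 12 highest, the 6 largest fold changes in each direction, the 3 highest of each class, those next to the threshold and snoRNAs that share a host with at least 2 others, with their hosts. Members, gene lists and this rule were chosen with earlier results of these data known.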

Additional observations from a re-analysis of the deposited data

Results flagged for a closer look

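In 5 cases 1 of the 4 libraries of a strain lay far from the others by Dixon's criterion, out of 98 groups of 4 libraries looked at; chance alone flags about 1 group in 20. Gm23805, a U6-sequence gene, had 0.0993 CPM in the T2 library of C57BL/6J sample 1, which is 1 read, and 0 in the other 3 C57BL/6J libraries. Gm23002, a U6-sequence gene, had 0.127 CPM in the T2 library of NOD/ShiLtJ sample 1, which is 3 reads, and 0 in the other 3 NOD/ShiLtJ libraries. With 3 libraries at 0 any read in the other library meets the criterion, so the flags of Gm23805 and Gm23002 carry no information. Snord35a, a box C/D snoRNA inside Rpl13a, had 28.7 CPM and Snord65, a box C/D snoRNA inside 2410006H16Rik, had 2.57 CPM in the T2 library of NOD/ShiLtJ sample 1, each above the other 3 NOD/ShiLtJ libraries. Gm23301, inside Rpl17, had 7.86 CPM in the T1 library of C57BL/6J sample 1, above the other 3 C57BL/6J libraries. In 3 of the 5 the library is the one that stood apart in the share of small RNA reads; its part in these values was not tested.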

How the results depend on the processing

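The number of small RNA genes called higher was 9 and lower 5. With no filter beyond 1 count it was 18 higher and 16 lower. The number lower was 12 by DESeq2 (11 higher), 13 with 8 libraries as separate samples (11 higher), 15 with NOD/ShiLtJ sample 1 from T1 alone, 3 from T2 alone and 2 with the small RNA total as library size; these last 3 settings were chosen after seeing the data. Leaving out 1 sample at a time gave 6 to 58 higher and 1 to 28 lower, and a difference in share of -0.10 to 0.52 percentage points. The median log2 fold change of the members was -0.32 without NOD/ShiLtJ sample 1, -0.038 with T1 alone and -0.018 with the small RNA total as library size, against 0.33, and -0.32 to 0.76 over the samples left out in turn; the cause was not tested. DESeq2 size factors, totals without a scaling factor and library sizes without the members gave 9, 10 and 9 higher and 5 lower each. The difference in share was 0.28 points of protein-coding reads and 0.19 without the highest member, and no exact test of a share can pass 0.05 here. A threshold of 0.5 CPM gave 396 members and 2 CPM gave 212. A host on either strand gave 48.2% of 193 members in the direction of their host.

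Over all 17291 tested genes, samples with the same B number did not deviate together (correlation -0.12), so the numbers were not used as pairs. The members alone went the other way. Sample 1 was above sample 2 for 291 of 296 members in NOD/ShiLtJ and for 253 of 296 in C57BL/6J. With 2 samples per strain, neither value can show whether the numbers pair the samples. With the B number as a replicate block 11 genes were called higher and 9 lower, and with the numbers crossed 7 higher and 6 lower. The crossed setting was also chosen after seeing the data.

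With 2 samples per strain and 2 residual degrees of freedom, the fit can miss differences of the size of the within-strain spread. Near-identical copies limit which gene a read belongs to at any depth.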
